A study of Homo sapiens with 45 samples.

Results

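The 37 genes of the human mitochondrial genome were followed in RNA from 15 breast cancer cell lines. They were the rows of the deposited count table whose Ensembl identifiers lie on chromosome M in GENCODE 29 (GRCh38), 37 of 64485 rows, and comprise 13 mRNAs, 2 rRNAs and 22 tRNAs. All 37 had counts, and all 45 libraries were used.

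Each line contributed 3 libraries of total RNA, made after removal of ribosomal RNA with Ribo-Zero Gold, and the values are read counts per gene. All cells were untreated and labelled wild-type, were grown with 10% fetal bovine serum and L-glutamine, and gave 1000 ng of RNA per library. HCC70, HCC38, HCC1937, BT-549, HCC1806, HCC1143, HCC1395 and HCC1187 grew in RPMI 1640. L-15, a medium whose sugar is galactose, was used for MDA-MB-468, MDA-MB-157, MDA-MB-453, MDA-MB-231 and MDA-MB-436. BT-20 grew in EMEM and Hs578T in DMEM. Insulin was added at 2 ug/mL for BT-20 and BT-549 and at 10 ug/mL for MDA-MB-436, which also received 16 ug/mL glutathione. The labels give a run as the batch of each library. HCC1143, HCC38, Hs578T and MDA-MB-231 belong to runs 1 and 2, and the other 11 lines have 1 library each in runs 3, 4 and 5. Nothing in the labels ties the 3 replicates of a line to cultures grown apart, and the p-values then rest only on the spread between these libraries, which may be technical.

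Mitochondrial DNA is a small circle present in many copies per cell. Both of its strands are transcribed as long precursors, which are cut mostly at the tRNAs that lie between the other genes. Its mRNAs encode core subunits of the respiratory chain and the ATP synthase, while the polymerase POLRMT, the packaging factor TFAM, the RNA processing enzymes and all other subunits come from nuclear genes. The rRNAs and tRNAs serve the ribosome inside the organelle. Levels of these transcripts therefore bear on the study's subject, complex I and the TCA cycle in breast cancer cells, although the RNA level of a subunit does not give the activity of a complex.

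The sequences below are those of the tRNAs to which single results refer, with the anticodon in capitals, and of the places where 2 reading frames share bases. They were read from the GENCODE 29 transcripts in the direction of each gene and in DNA letters. MT-TQ, on the light-strand side at chrM:4329-4400, had the most tRNA counts. MT-TP, at chrM:15956-16023 on the same strand, came next. MT-TS1, at chrM:7446-7514, lies beside MT-TD, at chrM:7518-7585 on the opposite strand, which had no counts in 1 line.
MT-TQ: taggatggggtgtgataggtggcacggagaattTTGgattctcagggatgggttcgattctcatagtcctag
MT-TP: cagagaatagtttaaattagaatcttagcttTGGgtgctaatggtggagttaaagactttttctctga
MT-TS1: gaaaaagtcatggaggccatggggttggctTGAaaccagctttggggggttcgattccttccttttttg
MT-TD: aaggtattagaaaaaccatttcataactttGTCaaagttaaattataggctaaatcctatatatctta
The end of MT-ATP8 overlaps the start of MT-ATP6 by 46 bases (chrM:8527-8572), and the end of MT-ND4L overlaps the start of MT-ND4 by 7 bases (chrM:10760-10766). The start codon of the second frame is in capitals.
MT-ATP8 and MT-ATP6: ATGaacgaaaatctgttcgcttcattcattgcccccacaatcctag
MT-ND4L and MT-ND4: ATGctaa
The sources used here do not give the assignment of reads in these overlaps, or of reads that match both mitochondrial DNA and its nuclear copies. They do not give the strand setting of the counting either. Reads of MT-ND6 or of a tRNA gene and reads of antisense RNA across it therefore cannot be told apart.

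Library totals lay between 2312138 and 14653677 counts (median 6263573), and 27967 to 40272 genes had at least 1 count. Hs578T replicate 2 stands apart: it had the fewest counts, the most genes and the highest mitochondrial share, and the shares and calls of Hs578T are given without it too. No 2 libraries of a line agreed within sampling noise. The labels call all cells epithelial. The epithelial adhesion gene EPCAM had 156 to 858 CPM (counts scaled to a common library size) in 9 lines and 18.1 CPM in MDA-MB-231. It had 0.426 to 5.72 CPM in BT-549, HCC1395, Hs578T, MDA-MB-157 and MDA-MB-436, where VIM, the mesenchymal filament gene, had 1634 to 3593 CPM. These 5 lines include both the highest and the lowest mitochondrial mRNA share. VIM split the lines less cleanly, as MDA-MB-231 had 1561 CPM and HCC1143, with high EPCAM, had 1334 CPM. Single markers also varied within the 5 lines. The epithelial keratin gene KRT18 had 108 to 200 CPM except in BT-549 (2.89 CPM). The mesenchymal gene SPARC was lowest in HCC1395 (0.788 CPM) and highest in MDA-MB-157 (3952 CPM). In edgeR all 7 listed epithelial markers were lower in each of the 5 lines, and 3 to 5 of 5 mesenchymal ones higher. Of the blood cell markers, CD3E, HBB and PTPRC had line means of at most 1.26, 0.743 and 4.84 CPM, while CD14 reached 33.3 CPM in HCC70 and 26.7 CPM in MDA-MB-157. Of the endothelial markers, CDH5 had 118 CPM in BT-20, PECAM1 15.8 CPM in HCC1937 and KDR 12.7 CPM in MDA-MB-231. The part of these markers in the results was not tested.

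The 13 mRNAs together took 0.0433% to 0.641% of a library (median 0.134%), and all 37 genes took 0.0502% to 0.782%. These shares rest on 3259 to 33286 mRNA counts per library, so counting error is small beside the differences between libraries. MDA-MB-157 had the highest mean share, 0.448% ± 0.109 (SD, n = 3), with 0.379%, 0.574% and 0.392% in replicates 1 to 3. BT-549 followed with 0.357% ± 0.214 (SD, n = 3), from 0.375%, 0.561% and 0.134%. HCC1395 had the lowest, 0.0580% ± 0.0196 (SD, n = 3), from 0.0805%, 0.0490% and 0.0445%. The libraries of MDA-MB-157 lay wholly above those of HCC1395, while 1 library of BT-549 fell to the level of HCC1937 replicate 3 (0.135%).

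The order from high to low was MDA-MB-157, BT-549, Hs578T (0.291%), MDA-MB-231 (0.237%), BT-20 (0.220%), MDA-MB-453 (0.204%), HCC1187 (0.190%), MDA-MB-436 (0.172%), HCC1143 (0.152%), MDA-MB-468 (0.0964%), HCC1937 (0.0935%), HCC70 (0.0874%), HCC38 (0.0781%), HCC1806 (0.0657%) and HCC1395. Without its replicate 2 the mean of Hs578T was 0.116% (n = 2), which is rank 9 in place of 3. Among neighbours in this order, only HCC1143 and MDA-MB-468 differed by more than the larger of their SDs, and even their libraries overlapped. Over all lines the share differed beyond the spread between replicates, with a 7.87-fold range of geometric line means (permutation test on log2 shares, p = 9e-05, n = 3 libraries per line). Differences between line means held 69.9% of the variance of the log2 share. Part of this comes from the spread between replicates alone, because each mean rests on 3 libraries. In the 11 lines of runs 3 to 5, permuted within run, p was 4e-05. In the 4 lines of runs 1 and 2 alone the range was 3.09-fold and the permutation p was 0.164.

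**Figure D1:**
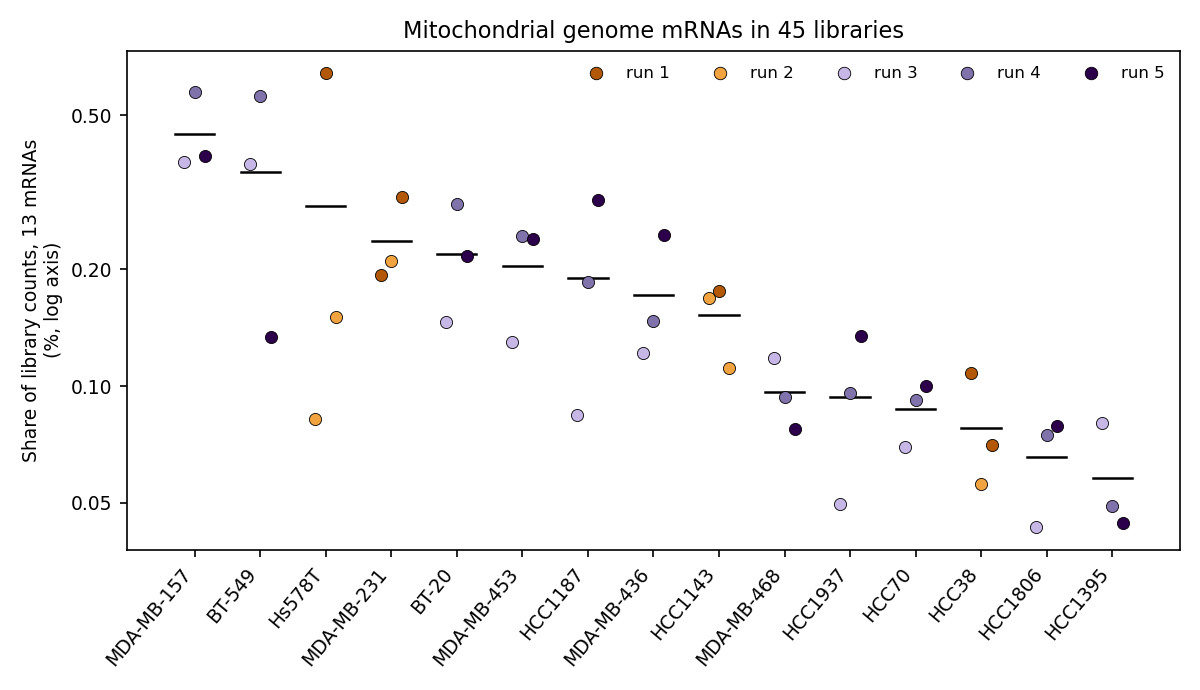
Share of library counts taken by the 13 mitochondrial mRNAs (percent, log axis) for each of 45 libraries, by line; points are libraries coloured by batch run and bars are line means. MDA-MB-157 lies between 0.379% and 0.574%, HCC1395 between 0.0445% and 0.0805%, and Hs578T holds the widest spread, 0.0824% to 0.641%.

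Replicates of a line also differed, in most lines by less than the range of line means. The highest share of a line was at least 1.43 times its lowest, with a median of 1.88 times over the 15 lines, and 6 lines spread by 2 times or more. Hs578T spread most, 7.78 times, from 0.0824% and 0.151% in replicates 1 and 3 to 0.641% in replicate 2. BT-549 spread 4.19 times and HCC1187 3.57 times. HCC1187 had 0.0844%, 0.185% and 0.302%; its lowest library lay near the mean of HCC70 and its highest above the mean of Hs578T.

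Libraries and lines with more detected genes had a larger mRNA share. Across the 15 line means, log2 share and genes detected had Pearson's r = 0.747 (permutation p = 0.00173) and Spearman's rho = 0.671 (permutation p = 0.0078). Without HCC1395 and HCC70, the lines farthest from the median of genes detected, r was 0.682. When each library was thinned to 2312138 counts, the total of the smallest, r over line means was 0.766, so the relation was as large at equal depth. As a description, r was 0.737 over the 45 libraries and 0.721 within lines, and 0.843 within lines after thinning. The libraries of a line are not independent points. In 11 of 15 lines the library with the most genes detected was also the one with the highest mitochondrial share. In the 11 lines of runs 3 to 5 alone, r over line means was 0.751 (permutation p = 0.00924). Without Hs578T replicate 2 it was 0.730 over the 15 lines.

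**Figure D2:**
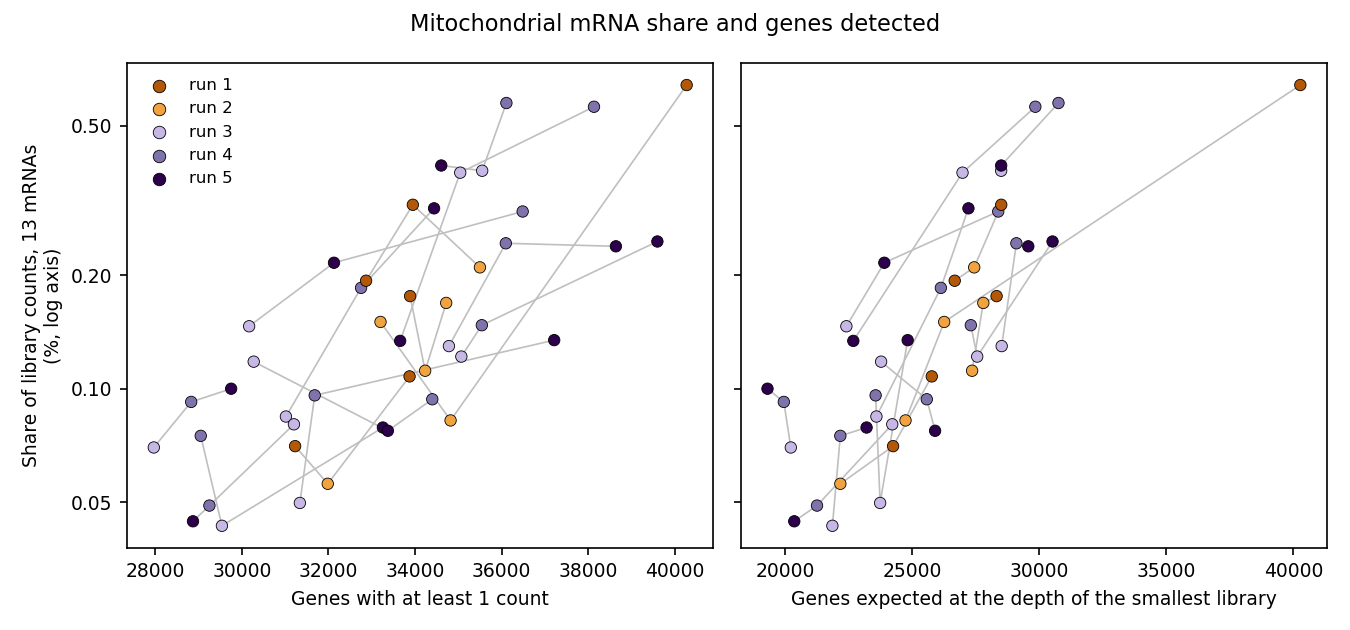
Mitochondrial mRNA share (percent, log axis) against genes with at least 1 count (left) and genes expected when each library is thinned to the smallest total (right); grey lines join the 3 libraries of a line and colours give the run. Libraries with more genes hold a larger share, with r = 0.737 over the 45 libraries on the left axis.

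Other library measures are given beside the share without a test. Its r with total counts was -0.629 over 45 libraries. Nuclear copies of mitochondrial genes, which are DNA fragments inserted in chromosomes and listed as 407 rows, took 0.00219% to 0.0775% of a library. Their share had r = 0.852 with the mRNA share within lines. Whether reads were divided between the copies and chromosome M was not tested. The share of MALAT1, NEAT1 and the other nuclear retained RNAs had r = 0.353 with the mRNA share over 45 libraries, 0.416 over line means and 0.140 within lines. For a list of short nuclear and cytosolic RNAs these were -0.132, 0.053 and -0.524. Fewer mitochondrial transcripts per cell and more of other RNA per cell cannot be told apart in these data, because every value is relative to its library.

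By complex, the 7 mRNAs of complex I held 37.2% of all mitochondrial counts, the 3 of complex IV 36.7%, MT-CYB of complex III 7.77% and the 2 of complex V 4.82%. Per kilobase of gene, the median line level was highest for MT-CO2 (244 CPM per kilobase) and MT-CO1 (232 CPM per kilobase), 2 of the catalytic core subunits of cytochrome c oxidase. MT-ND3, MT-ND4 and MT-ND6 of complex I lay between 147 and 149 CPM per kilobase. MT-CYB had 125, MT-ATP6 112, MT-CO3 108 and MT-ND5 104 CPM per kilobase. MT-ND2 (78.5), MT-ATP8 (66.8), MT-ND4L (66.4) and MT-ND1 (62.9 CPM per kilobase) had the lowest levels per length among the mRNAs.

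All 13 mRNAs, both rRNAs and 19 of the 22 tRNAs differed among the 15 lines in edgeR's quasi-likelihood test, at an adjusted p under 0.05. This is not particular to them, since 98.2% of the 20587 genes tested did so. The other 3 tRNAs had too few counts to be tested. Between the highest and the lowest line, mean CPM differed 5.09-fold for MT-ND3 to 11.5-fold for MT-ND2, against a median of 9.16-fold over all tested genes. Each line was then compared with the mean of the other 14, which gives 195 combinations of an mRNA and a line. In these, 49 were higher and 49 lower, and over all genes and lines 30.4% were called higher and 23.9% lower.

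BT-549 and MDA-MB-157 had the most mRNAs above the other lines. In MDA-MB-157, 12 of the 13 mRNAs were higher and 0 lower, where 31.3% of all tested genes were called higher and 26.2% lower. Their median difference was 1.40 on the log2 scale, against 0.07 for all tested genes. MT-CO1 had 1035, 1243 and 1066 CPM in its replicates, 1115 CPM ± 113 (SD, n = 3), above every library of the other lines. Its difference was 1.75 ± 0.21 (log2, SE; edgeR adjusted p = 1.23e-09). MT-ATP8 was the exception, at 0.78 ± 0.39 (log2, SE; edgeR adjusted p = 0.0836).

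In BT-549, 12 of 13 were also higher, where 28.6% of all genes were called higher and 21.2% lower. The largest difference there was 1.94 ± 0.28 (log2, SE; edgeR adjusted p = 9.08e-08) for MT-ND5, which encodes a proton-pumping subunit at the far end of the membrane arm of complex I. MT-ND5 had 657, 924 and 172 CPM in the 3 replicates of BT-549. The third library lay below all 3 of MDA-MB-231 (301 to 480 CPM). MT-CO2 was the exception in BT-549, at 0.48 ± 0.25 (log2, SE; edgeR adjusted p = 0.111).

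Hs578T and MDA-MB-231 were higher in MT-CYB and most mRNAs of complex I, while none of complex IV passed. In MDA-MB-231, MT-ND2, MT-ND3, MT-ND4, MT-ND5, MT-ND6 and MT-CYB were higher, 6 of 13, where 27% of all genes were called higher and 23.5% lower. MT-ND6 led with 1.67 ± 0.23 (log2, SE; edgeR adjusted p = 4.23e-08), while MT-CO1, MT-CO2 and MT-CO3 were at 0.23, 0.07 and -0.34 (log2) and did not pass. In Hs578T, 8 of 13 were higher (31.5% of all genes higher and 24.2% lower), MT-ATP6 among them, with MT-ND5 at 1.37 ± 0.30 (log2, SE; edgeR adjusted p = 0.000155). Without its replicate 2 only 1 mRNA of Hs578T was higher and 2 were lower, so its position rests on that library. Whether the difference between complex I and complex IV in these lines exceeds that in other lines was not tested by gene. Both lines belong to runs 1 and 2.

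HCC1395 was the one line in which all 13 mRNAs were lower, where 27.6% of all tested genes were called lower and 31.3% higher. Their median difference was -1.36 (log2), against -0.07 for all tested genes. MT-CO2 had 43.5, 51.9 and 56.3 CPM, the lowest line mean, 50.6 CPM ± 6.52 (SD, n = 3). Its difference was -1.77 ± 0.31 (log2, SE; edgeR adjusted p = 4.27e-06). The count of lower mRNAs in HCC1395 fell to 6 without replicate 2 of every line and to 7 without replicate 3.

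MDA-MB-468 was lower in 9 of 13 mRNAs, where 20.2% of all genes were called lower and 29.2% higher, and the exceptions were MT-CO1, MT-CO2, MT-CO3 and MT-ND4L. MT-ND2, a membrane-arm subunit of complex I, had 17.8, 21.7 and 23.0 CPM in this line, below all libraries of the other lines except 1 of HCC70 (21.8 CPM). Its difference was -2.04 ± 0.46 (log2, SE; edgeR adjusted p = 0.000214). MT-ND6 was at -2.01 ± 0.35 (log2, SE; edgeR adjusted p = 2.89e-06). MT-CO1 in the same line had 627, 355 and 263 CPM and a difference of 0.22 ± 0.25 (log2, SE; edgeR adjusted p = 0.514).

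HCC1806 was lower in 9 mRNAs (23.6% of all genes lower and 31.4% higher), with MT-ATP6, the channel subunit of ATP synthase, at -1.87 ± 0.49 (log2, SE; edgeR adjusted p = 0.00123). HCC70 was lower in 7 (32% of all genes lower and 34.1% higher), of which 6 encode complex I subunits and 1 is MT-ATP8. HCC1937 was lower in 5 (20.5% of all genes lower and 31% higher) and HCC38 in 5 (21.2% lower and 29.5% higher). In HCC38 these included all 3 mRNAs of complex IV, with MT-CO3 at -1.52 ± 0.29 (log2, SE; edgeR adjusted p = 1.4e-05). The count in HCC38 moved between 2 and 11, and that in HCC1937 between 2 and 7, when replicate 1, 2 or 3 of every line was left out.

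The remaining lines had few calls. HCC1187 was higher in 5 mRNAs (30.1% of all genes higher and 22.8% lower), led by MT-ND4L at 1.42 ± 0.36 (log2, SE; edgeR adjusted p = 0.000713), and in none without replicate 3. BT-20 was higher in MT-CO1, MT-CO2 and MT-CO3 (29.3% of all genes higher and 21.1% lower). MT-CO3 had 225, 219 and 238 CPM in BT-20, and its difference was 1.26 ± 0.21 (log2, SE; edgeR adjusted p = 1.98e-06). HCC1143 was higher in MT-ND3 and MT-ND6 (30.8% of all genes higher) and lower in MT-CO3 (24.4% lower). It had 1 higher without replicate 1 or 2 of every line, and 3 lower without replicate 1 and 0 without replicate 3. MDA-MB-453 was higher in MT-CO1 alone (30.7% of all genes higher and 26% lower), a call lost without replicate 2 or 3. In MDA-MB-436 none passed in edgeR, where 30.6% of all genes were called higher and 24.3% lower.

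**Figure D3:**
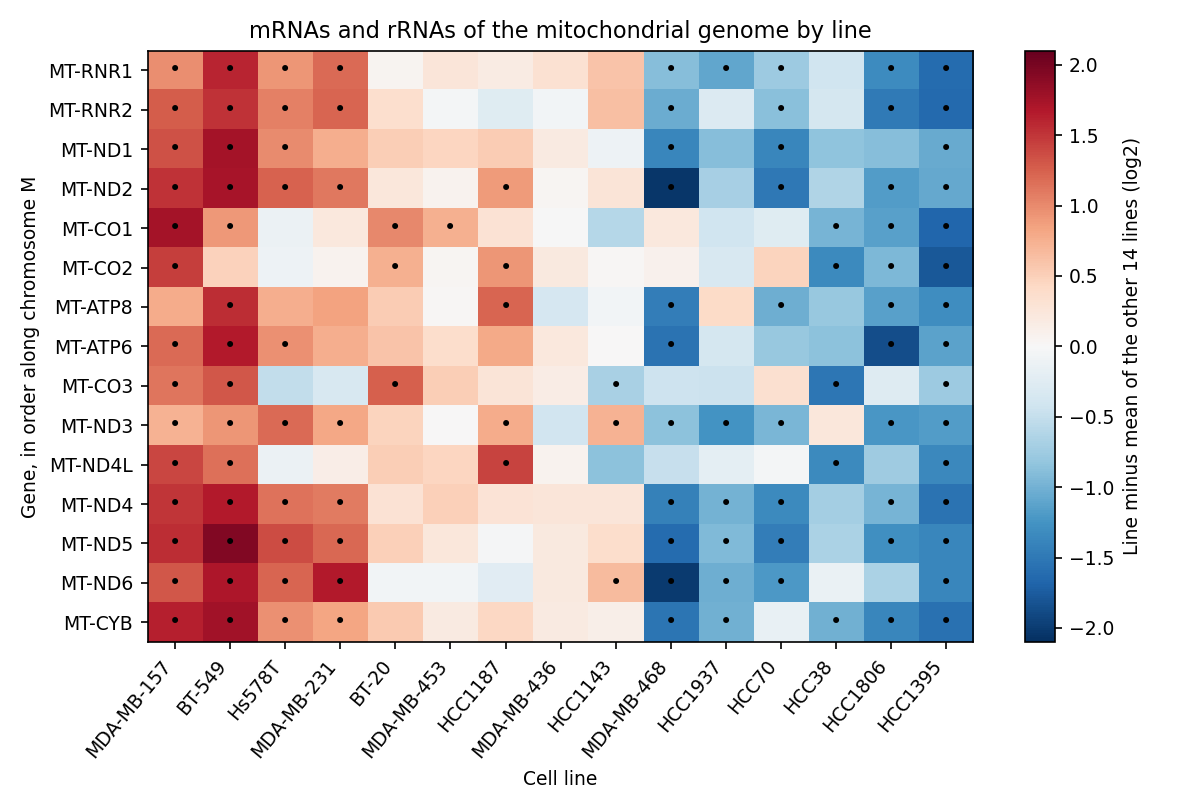
Difference of each line from the mean of the other 14 lines (log2, colour) for the 2 rRNAs and 13 mRNAs in genome order, with lines ordered by mean mRNA share; a dot marks an adjusted p under 0.05 in edgeR. MDA-MB-157 and BT-549 carry 12 dots on red among the mRNAs and HCC1395 carries 13 on blue, while MT-CO1, MT-CO2 and MT-CO3 of MDA-MB-468, HCC70, Hs578T and MDA-MB-231 carry none.

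The rRNAs are given apart because they were targets of depletion, and what remains depends on how complete it was. MT-RNR1 and MT-RNR2, the small and large subunit rRNAs, took 0.0040% to 0.0796% of a library and held 8.37% of all mitochondrial counts. Mean shares ran from 0.00493% ± 0.00133 (SD, n = 3) in HCC1395 to 0.0379% ± 0.0212 (SD, n = 3) in BT-549. The range of geometric line means was 7.53-fold (permutation test, p = 4e-05, n = 3 libraries per line), and 3.08-fold with a permutation p of 0.193 in the 4 lines of runs 1 and 2. Both rRNAs were higher in BT-549 (28.6% of all genes higher), MDA-MB-157 (31.3%), Hs578T (31.5%) and MDA-MB-231 (27%). Without replicate 2 of Hs578T neither was called in that line, and its mean rRNA share moved from 0.0358% to 0.0138% (n = 2). Both were lower in HCC1395 (27.6% of all genes lower), HCC1806 (23.6%), HCC70 (32%) and MDA-MB-468 (20.2%). HCC1937 was lower in MT-RNR1 alone (20.5% of all genes lower). The rRNA share had r = 0.932 with the mRNA share over the 45 libraries, and across lines the 2 rRNAs had r = 0.966 with each other. Among the 78 pairs of mRNAs the median r across lines was 0.821, from 0.258 for MT-CO3 with MT-ND3 to 0.986 for MT-ND4 with MT-ND5.

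The 22 tRNAs took 0.00209% to 0.0612% of a library. MT-TQ, whose sequence is given above, held 8079 counts, 28.1% of all tRNA counts. MT-TP had 3766, MT-TS1 2267, MT-TM 2093 and MT-TA 1944 counts. These 5 carry glutamine, proline, serine, methionine and alanine, and the genes of 4 of them lie on the strand that also encodes MT-ND6. The 8 tRNA genes of that strand held 17225 counts and the 14 of the other strand 11482. The strand from which these reads came is not known, as for MT-ND6. At the other end, MT-TR had 35 counts in all and none in 25 libraries, and MT-TG had 83 and none in 18.

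MT-TQ had 105, 144 and 25.6 CPM in BT-549, the highest line mean, and 4.78, 7.19 and 11.1 CPM in MDA-MB-468, the lowest. It was higher in 5 lines and lower in 5. BT-549 had 2.23 ± 0.27 (log2, SE; edgeR adjusted p = 8.31e-10). Of the 19 tested tRNAs, BT-549 was higher in 18 (28.6% of all genes higher), MDA-MB-157 in 17 (31.3%), MDA-MB-231 in 14 (27%) and Hs578T in 10 (31.5%). These lines were also called higher in the rRNAs. Without its replicate 2 Hs578T was higher in 2 tRNAs, where 25% of all genes were called higher. HCC70 was lower in 13 (32% of all genes lower), MDA-MB-468 in 11 (20.2%), HCC1937 in 10 (20.5%) and HCC1395 in 9 (27.6%). HCC1806 was lower in 5, near its share over all genes (23.6%). HCC1143 was higher in 5, no more than its share over all genes (30.8%). BT-20 and MDA-MB-436 were higher in 1 each, below their 29.3% and 30.6% of all genes. HCC1187 and HCC38 were lower in 1 each, below their 22.8% and 21.2%.

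MT-TD, the tRNA for aspartate, had 0 counts in all 3 libraries of HCC1806. It had 2 to 123 counts in each of the other 42 libraries. MT-TD was singled out after its values were seen. Taking 3 counts over the line's summed libraries as the floor, its level in HCC1806 was at least 24.4-fold lower than the median of the other 14 lines (3.06 CPM of summed libraries). Set against the mRNA counts of the same line, it was at least 12.1-fold lower than the median of the other lines and at least 2.996-fold lower than the lowest of them. Its neighbours had counts in HCC1806. MT-TS1 had 22 counts over the 3 libraries, 0.920 CPM of summed libraries, which was also the lowest of the 15 lines (the others had 1.68 to 20.6 CPM). MT-CO2 had 319, 714 and 825 counts. The comparisons of the other lines for MT-TD take a mean that includes this 0, so their estimates depend on the prior count and are not given. The tRNA counts by line given above include the comparisons of MT-TD, and carry this limit.

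MT-ND6 is the only mRNA on its strand, and its ratio to the other 12 mRNAs does not depend on library scaling. It lay between 0.972 and 12.99 counts per 100 counts of the other 12. The line mean was highest in MDA-MB-231, 11.3 ± 2.75 (SD, n = 3), from 12.99, 8.12 and 12.8. It was lowest in MDA-MB-468, 2.56 ± 1.74 (SD, n = 3), from 0.972, 2.29 and 4.43, and the libraries of these 2 lines did not overlap. MDA-MB-231 belongs to runs 1 and 2 and MDA-MB-468 to runs 3 to 5, so line and run set cannot be told apart here. The geometric line means spanned 5.13-fold (permutation test, p = 0.00114, n = 3 libraries per line). In the 11 lines of runs 3 to 5 the span was 3.65-fold, and the permutation p within run was 0.0391. In the 4 lines of runs 1 and 2 the span was 1.33-fold and the permutation p was 0.48. Without replicate 2 of every line the permutation p was 0.14. Against only its neighbours MT-CYB and MT-ND5, per base, the span was 2.23-fold and the permutation p was 0.0898.

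The composition of the mRNA pool varied among lines. The 3 mRNAs of complex IV made up 66.6% ± 10.7 (SD, n = 3) of mRNA counts in MDA-MB-468, with 78.6%, 63.3% and 58.0% in its replicates. They made up 60.4% ± 2.91 in HCC70 and 27.3% ± 5.47 in Hs578T (SD, n = 3). In the replicates of Hs578T the complex IV mRNAs made up 31.5%, 21.1% and 29.3%. The 7 mRNAs of complex I were lowest in HCC70, 24.8% ± 1.78, and highest in Hs578T, 56.8% ± 3.59 (SD, n = 3). The replicates of Hs578T had 55.3%, 60.9% and 54.3%, and those of MDA-MB-231 had 57.6%, 52.4% and 57.6%. The first place of Hs578T in the complex I share therefore rests on its replicate 2. The libraries of HCC70 and Hs578T did not overlap in either share.

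Line means of this composition also separated the run sets. Complex I mRNAs made up 51.0% to 56.8% in the 4 lines of runs 1 and 2 and 24.8% to 49.3% in the other 11. Single libraries overlapped, since 4 of the 33 libraries of runs 3 to 5 lay at or above the lowest of runs 1 and 2 (48.9%). Per base, MT-CO3 made up 3.81% to 5.02% of the summed mRNA signal in those 4 lines and 6.94% to 13.6% in the others. Every one of the 12 libraries of runs 1 and 2 (3.71% to 5.37%) lay below all 33 others (5.54% to 17.3%). MT-ND4L was also lower in the 4 lines, 2.28% to 2.99% against 3.72% to 6.83%, and MT-ND6 higher, 13.2% to 17.6% against 4.39% to 13.1%, although single libraries overlapped for both. On the CPM scale no member separated the run sets, and over all tested genes 0.287% were above and 0.583% below in all 4 lines. Since each line belongs to only 1 run set, line and run set cannot be told apart here, and this bears on the complex I and complex IV results of Hs578T, MDA-MB-231, HCC1143 and HCC38.

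**Figure D4:**
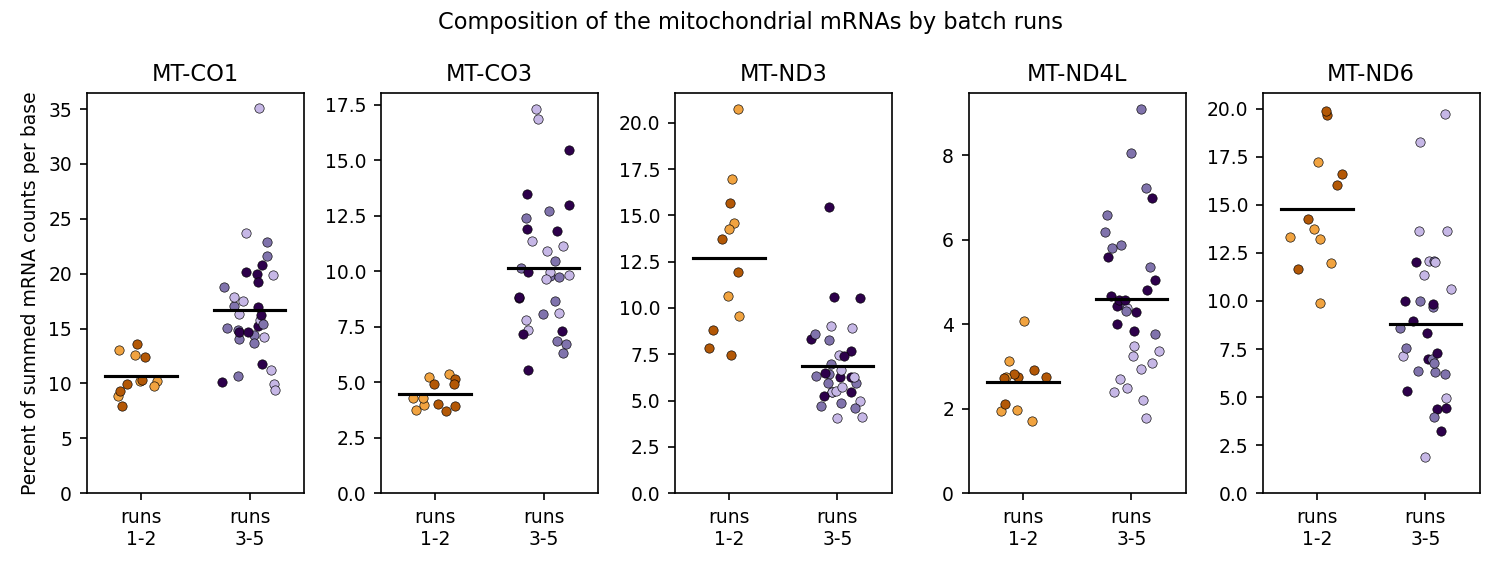
Percent of the summed per-base signal of the 13 mRNAs taken by MT-CO1, MT-CO3, MT-ND3, MT-ND4L and MT-ND6, for the libraries of runs 1 and 2 and of runs 3 to 5; points are libraries coloured by run and bars are means of line means. For MT-CO3 the 12 libraries on the left end at 5.37%, below the lowest of the 33 on the right at 5.54%.

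Within the 11 lines that have 1 library in each of runs 3, 4 and 5, the run could be compared with the line held fixed. This comparison was chosen after the composition was seen. In run 4 against run 3, MT-ND4L was higher by 1.48 ± 0.19 (log2, SE; edgeR adjusted p = 7.35e-06) and was above in 11 of 11 lines. MT-ATP6 was higher by 0.94 ± 0.25 (edgeR adjusted p = 0.0183) and was above in 10 of 11. These were 2 of 13 mRNAs, where 5.22% of all tested genes were called in either direction, 2.56% higher and 2.66% lower. In run 5 against run 3, MT-ND4L was higher by 1.14 ± 0.19 (edgeR adjusted p = 0.000619) and above in 9 of 11 lines. MT-ND3 was higher by 0.75 ± 0.18 (edgeR adjusted p = 0.0147) and above in 9 of 11. There 3.28% of all tested genes were called, 1.78% higher and 1.49% lower. Most mRNAs leaned the same way without passing: the median difference of the 13 was 0.51 in run 4 and 0.48 in run 5 (log2). In run 4, 11 of the 13 were above run 3 in at least 8 of 11 lines, and in run 5, 12 were. The mRNA share was above run 3 in 9 and 8 of 11 lines. MT-ND6 differed by 0.08 and -0.14 (log2) and did not pass. Its counts per 100 counts of the other 12 had medians of 7.21, 4.15 and 4.43 in runs 3, 4 and 5, and were below run 3 in 9 and 8 of 11 lines. The counts of 2 rose to 4 in both comparisons without MDA-MB-468, and to 11 and 12 with no filter on low counts.

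MT-ND4L and MT-ND4 are neighbours on 1 strand, and their reading frames share the 7 bases shown above. The per-base ratio of MT-ND4L to MT-ND4 had a median of 0.356 in run 3, 0.869 in run 4 and 0.776 in run 5. It was higher than in run 3 in 10 of 11 lines in run 4 and in 11 of 11 in run 5. In the 4 lines of runs 1 and 2 the line means were 0.239 to 0.389, below the 0.451 to 1.17 of the other lines. The share of tRNA counts in genes annotated on the MT-ND6 strand moved the other way, with medians of 67.0%, 57.1% and 56.5% in runs 3, 4 and 5. It was lower than in run 3 in 10 of 11 lines both times. Genes detected were higher than in run 3 in 9 lines in run 4 and 8 in run 5, and their part in these differences was not tested.

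**Figure D5:**
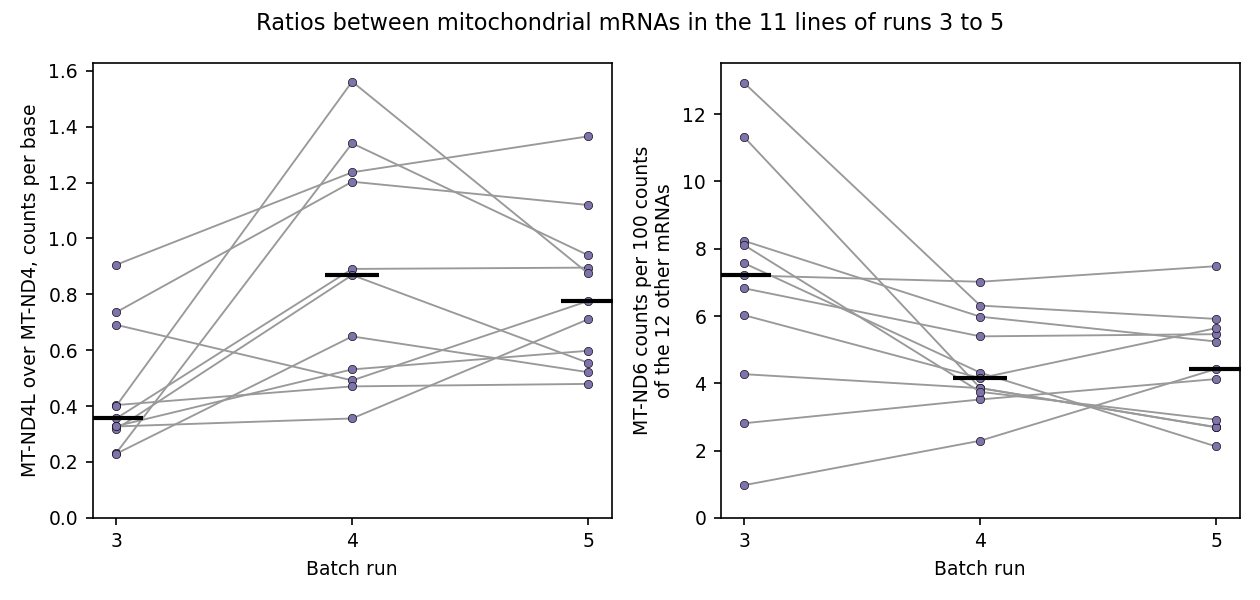
Per-base ratio of MT-ND4L to MT-ND4 (left) and MT-ND6 counts per 100 counts of the other 12 mRNAs (right) in runs 3, 4 and 5; each line joins the 3 libraries of 1 cell line and bars are medians. The median ratio on the left is 0.356 in run 3 and 0.869 in run 4.

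Medium was compared over lines, because it is a property of the line. The summed libraries of the 5 L-15 lines gave mRNA shares of 0.0962% to 0.441% (median 0.208%), and those of the 8 RPMI 1640 lines 0.0550% to 0.314% (median 0.0954%). The groups overlapped, with MDA-MB-468 low among the L-15 lines and BT-549 high among the RPMI 1640 lines. The mean log2 share was higher by 0.89 in L-15 (exact permutation test over 1287 splits, two-sided, p = 0.0886). The smallest p this design allows is 0.000777. Without replicate 2 of every line p was 0.0482, and within the lines of runs 3 to 5 it was 0.195 (exact permutation tests).

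Gene by gene, no mitochondrial mRNA passed in edgeR's test of L-15 against RPMI 1640, and neither did any of the 20505 genes tested (0% called). The median difference of the 13 was 0.49 (log2), against -0.03 over all genes. MT-CO1 alone had an unadjusted p under 0.05, with 0.93 ± 0.38 (log2, SE; edgeR adjusted p = 0.393). DESeq2 called none of the 13 either, with 1 at an unadjusted p under 0.05, although it called 183 genes higher and 301 lower in the whole table. Of the nuclear genes, 0 of 34 complex I, 8 complex III, 11 complex IV and 15 complex V subunits passed in edgeR. Medium cannot be told apart from the other properties of these lines.

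The study's title concerns cells with high MYC, a transcription factor that drives growth genes, but no label gives a MYC class. MYC ran from 3.94 log2 CPM in MDA-MB-453 to 7.54 in MDA-MB-231 (summed libraries). No mitochondrial mRNA had a slope on MYC that passed in edgeR, none had an unadjusted p under 0.05, and DESeq2 called none either. Over all genes 0.158% were called. The median slope of the 13 was -0.11 log2 units per log2 unit of MYC, against 0.01 over all genes. The lowest was -0.41 ± 0.20 (SE; edgeR adjusted p = 0.74) for MT-CO1, and the highest 0.12 for MT-ND6, whose sign turned in the 11 lines of runs 3 to 5. In all, 6 of the 13 slopes changed sign in at least 1 of 9 alternatives, none larger than 0.12 in size. Of 9 nuclear genes for mitochondrial transcription and 24 for RNA processing and decay, 0 passed, with median slopes of 0.04 and 0.20.

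Nuclear genes that serve mitochondrial DNA expression were counted in 4 lines chosen by the median difference of the mRNAs. It was highest in BT-549 (1.66) and MDA-MB-157 (1.40), and lowest in MDA-MB-468 (-1.42) and HCC1395 (-1.36, log2). The lists hold 9 transcription genes, 14 tested replication and nucleotide supply genes and 24 RNA processing and decay genes. In HCC1395, the line with the lowest mRNA share, 8 of 9 transcription genes were higher and 0 lower, with a median of 0.32 (log2), where 31.3% of all genes were called higher and 27.6% lower. POLRMT, the mitochondrial RNA polymerase, was at 0.80 ± 0.14 (log2, SE; edgeR adjusted p = 2.66e-06). In MDA-MB-157, the line with the highest share, 2 transcription genes were higher and 2 lower, no more than the shares over all genes (31.3% and 26.2%). TFAM, which packages mitochondrial DNA and starts transcription, was at -1.91 ± 0.10 (log2, SE; edgeR adjusted p = 9.19e-22) and POLRMT at -0.82 ± 0.18.

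In BT-549, where 28.6% of all genes were called higher and 21.2% lower, 6 transcription genes were higher and 0 lower, with MTERF3, a factor that binds mitochondrial DNA, at 1.03 ± 0.11 (log2, SE). Of the 14 replication and nucleotide supply genes, 5 were higher and 5 lower in BT-549. There TWNK, the mitochondrial helicase, was at 1.48 ± 0.11 and POLG, the catalytic subunit of the polymerase, at -0.75 ± 0.10 (log2, SE). In HCC1395, 8 of these 14 were higher and 1 lower (31.3% and 27.6% of all genes). The counts were 4 and 5 in MDA-MB-157 (31.3% and 26.2%) and 3 and 6 in MDA-MB-468 (29.2% and 20.2%). In MDA-MB-468, 1 transcription gene was higher and 4 lower (29.2% and 20.2% of all genes). RNA processing and decay genes were lower in 17 of 24 cases in MDA-MB-157 and higher in 5 (26.2% and 31.3% of all genes). The lower ones were led by HSD17B10, a subunit of mitochondrial RNase P, at -1.42 ± 0.20, and by MTPAP, the mitochondrial poly(A) polymerase, at -1.27 ± 0.10 (log2, SE). In BT-549, 13 of 24 were higher and 3 lower, with SUPV3L1, a helicase of RNA decay, at 1.13 ± 0.07 (log2, SE). The counts were 11 higher and 6 lower in HCC1395 (31.3% and 27.6% of all genes), and 9 and 6 in MDA-MB-468 (29.2% and 20.2%). MTPAP was also low in MDA-MB-468, at -1.15 ± 0.10 (log2, SE).

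Nuclear complex I subunits are given for the same lines. In MDA-MB-157, 5 of 34 tested were higher and 20 lower (31.3% and 26.2% of all genes), with a median of -0.48 (log2), and NDUFA9 was at -1.76 ± 0.15 (log2, SE). In HCC1395, 12 were higher and 6 lower, the former near the 31.3% over all genes (27.6% lower), with NDUFA12 at 1.18 ± 0.10 (log2, SE). In BT-549, 8 were higher and 9 lower (28.6% and 21.2% of all genes), and in MDA-MB-468, 9 and 13 (29.2% and 20.2%). Nuclear complex IV subunits were higher in 3 and lower in 6 of 11 in MDA-MB-157, with COX4I1 at -1.58 ± 0.15 (log2, SE), and higher in 5 and lower in 0 in HCC1395. In BT-549, 1 was higher and 6 lower, and in MDA-MB-468, 2 and 1. The relation between nuclear and mitochondrial subunits across lines was not tested. Nuclear complex V subunits were higher in 3 and lower in 3 of 15 in MDA-MB-157, and higher in 7 and lower in 1 in HCC1395. In BT-549, 4 were higher and 4 lower, and in MDA-MB-468, 3 and 4.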

How the data were processed

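RNA of 15 cell lines was counted in 45 libraries. Per the labels' protocols, total RNA was extracted with RNeasy, depleted with Ribo-Zero Gold and turned into ScriptSeq v2 libraries. The tools were bcl2fastq 2.20.0.422, FastQC, MultiQC, Trimmomatic, STAR and featureCounts, on GRCh38.p12, per the submitters' processing notes. The sources used here give no annotation release, strand setting or treatment of reads with several matches. Raw counts per gene are what the authors deposited. Of 64485 identifiers, 58275 matched GENCODE 29, from which positions and sequences were taken.

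From the counts, CPM were computed with TMM scaling, and shares as percent of library totals. Genes were kept by filterByExpr (minimum count 10, minimum total 15) and tested by edgeR 4.0.16 (R 4.3.3) with Benjamini-Hochberg adjustment over all tested genes at 0.05, each line against the mean of the other 14. The SE is the absolute estimate divided by the square root of F. Shares and ratios (with 0.5 added to each count) were tested on the log2 scale with 100000 permutations of libraries, for which 1e-05 is the smallest possible p, and media by exact permutation over line sums. MYC slopes used line sums. DESeq2 1.42.0, other filters, a replicate block and left-out libraries were alternatives. On simulated counts for the comparison of BT-20 with the other lines, over 20587 genes, 100 of 100 genes changed 2-fold were recovered, with 10 false calls. This does not give the recovery for the mitochondrial mRNAs. In HCC38 their median difference was -0.84 (log2), and only 5 of 13 were called lower. Some mRNAs at or below that median therefore had no call, and an mRNA without a call may still differ. Count floors cover counting error only. The mRNAs and rRNAs are all named; tRNAs are named for the highest counts or for calls, and of the nuclear lists at most the 2 highest and 2 lowest that passed. Members, lists and tests were chosen with earlier results of these data known. In the 11 lines of runs 3 to 5 the replicate number is the run in the labels. Deviations of libraries of the same run had a median r of 0.07, and 62 of 165 pairs were over 0.1.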

Additional observations from a re-analysis of the deposited data

Results flagged for a closer look

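In 44 checks of line means within the L-15 and the RPMI 1640 lines, 2 lines stood far from the nearest other line relative to the range, and chance gives about 1 such line in 20 groups. HCC70 was low in the complex I share of mitochondrial mRNA counts among the 8 RPMI 1640 lines. Its share was 24.8%, with 23.6%, 26.9% and 24.0% in its replicates, and the gap to the next line was 0.57 of the log2 range. MDA-MB-157 was high in MT-CO2 among the 5 L-15 lines. Its mean was 408 CPM, with 393, 452 and 380 CPM in its replicates, and the gap to the next line was 0.875 of the log2 range.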

How the results depend on the processing

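Of 92 comparisons of main results with their alternatives, 81 kept their direction and side of the threshold, or their count within 1.5 times. The 49 lower calls moved to 31 without replicate 2 and ranged from 31 to 54 over left-out replicates, and the 49 higher calls from 37 to 51. With no filter on low counts they were 71 and 67. In the 4 lines of runs 1 and 2 the permutation tests of the mRNA share (3.09-fold, p = 0.164), rRNA share (3.08-fold, p = 0.193) and MT-ND6 ratio (1.33-fold, p = 0.48) lost significance, with fewer lines. The permutation test of the MT-ND6 ratio also did so against MT-CYB and MT-ND5 (2.23-fold, p = 0.0898) and without replicate 2 (6.18-fold, p = 0.14), with a range of 3.36-fold to 6.85-fold over left-out replicates. The exact permutation test of L-15 against RPMI 1640 passed without replicate 2 (0.91 log2, p = 0.0482; range 0.83 to 0.96 over left-out replicates). The run comparisons gave 4 mRNAs each without MDA-MB-468, and 11 and 12 with no filter on low counts. The causes were not tested.

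Reversed signs in Hs578T without its replicate 2 were MT-ATP6 (-0.16), MT-CYB (-0.050) and MT-ND1 (-0.13). Over all left-out replicates these ranged from -0.16 to 1.43, from -0.050 to 1.46 and from -0.13 to 1.44, and MT-ATP6 was -0.014 without replicate 2 of every line. MT-ATP8 by medium (-0.071 to 0.068 over left-out replicates, above 0 without replicate 3) and the MYC slope of MT-ND6 (-0.12 in the 11 lines of runs 3 to 5) also turned, neither of which had passed. The other 5 MYC slopes that changed sign were those of MT-ND2, MT-ND3, MT-ND5, MT-ATP6 and MT-ATP8, none larger than 0.12 in size.

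With the replicate number as a block, 52 higher and 51 lower calls were made, and it changed 1 of the 98 calls of an mRNA in a line. With labels permuted within run (the replicate block, 11 lines) the permutation p of the mRNA share was 4e-05. No paired analysis was possible for medium and MYC because replicates were summed per line. With the line held fixed, the share and genes detected had r = 0.721. Low counts limit the tRNAs: MT-TC, MT-TG and MT-TR were not tested.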

Other observations

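Ratios between neighbouring genes that entered no comparison are given as values. MT-RNR2 had 1.98 to 3.79 times the per-base counts of MT-RNR1 as line means, highest in HCC1937 (3.79 ± 1.61, SD, n = 3) and lowest in HCC1187. MT-ATP8 had 0.521 (MDA-MB-436) to 1.10 (HCC1806) times the per-base counts of MT-ATP6, which shares 46 bases with it. In Hs578T, 10 of 15 tested nuclear complex V subunits were lower and 0 higher, and complex IV subunits were lower in 8 of 11 and higher in 1, where 24.2% of all genes were called lower and 31.5% higher. Without its replicate 2 these were 5 lower and 1 higher, and 6 lower and 1 higher (20.9% and 25% of all genes). Among 77 tested nuclear copies of mitochondrial genes, 30 were higher in Hs578T and 0 lower. Without its replicate 2, 10 of 86 were higher and 1 lower, and the mean share of the copies moved from 0.0357% to 0.0148%. In HCC70, 47 of the 77 were lower and 2 higher (32% and 34.1% of all genes), and in HCC1395, 34 were lower and 0 higher (27.6% and 31.3%).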
